A study of Mus musculus with 2 samples.

Results

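The genes described are 10 genes of matrix remodelling among the 17232 genes of a single-cell RNA sequencing (scRNAseq) experiment on tumor-infiltrating immune cells (TIIs). They are the proteases *Mmp9*, *Mmp12*, *Mmp13*, *Mmp14* and *Ctsk*, the inhibitors *Timp1* and *Timp2*, and the matricellular genes *Thbs1*, *Spp1* and *Tgfbi*, each taken by its symbol. They were selected on UMIs measured in these same cells, so their levels and differences are descriptions and no test was made. B16-OVA cells, a mouse melanoma line carrying the model antigen ovalbumin, were grown in *Maoa* WT mice of the C57BL/6J background or in *Maoa* KO mice, which carry the hypomorphic 129S-Maoa tm1Shih/J allele backcrossed to C57BL/6J, at 8 to 12 weeks of age and female unless stated otherwise. At day 14, DAPI-CD45.2+ cells from 10 pooled tumors per genotype were sorted into 1 library each. There was no replicate of either genotype, and every interval below is a 95% interval of counting error only.

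The library labelled WT held 2392 cells at a median of 9887.5 UMIs (unique molecular identifiers, which count captured RNA molecules), and the library labelled KO held 2630 cells at a median of 6945.5 UMIs. *Maoa* itself (chromosome X, 16619698 to 16687818, GRCm38) had 7 UMIs in the former and 15 in the latter, and 2 and 9 in their macrophage/monocyte cells (log2 ratio, KO-labelled over WT-labelled, 2.58, 0.30 to 5.83). It was therefore higher where the label says KO in those cells, against the label, and each library is called by its label. There were 13 barcode sequences present in both libraries (26 cells), and leaving those cells out moved no log2 ratio of the 10 genes in macrophage/monocyte, DC, T or NK cells out of its interval. The cells fell into 15 clusters, built without these genes. Clusters 3, 10, 0 and 6 made up the macrophage/monocyte class (969 and 832 cells, in the order WT-labelled then KO-labelled, as for every pair of values below), clusters 8, 12 and 13 the dendritic cell (DC) class (141 and 321), clusters 1, 2, 5 and 9 the T cell class (920 and 866), and cluster 4 the NK class (189 and 268). Each name rests on marker genes alone and stands for macrophage/monocyte-like, DC-like, T cell-like or NK-like. The leading genes of cluster 3 were *Cxcl3*, *Inhba* and *Hilpda* (named from a list of macrophage markers), those of cluster 10 *Ccl8* and *C1qa* (14 of 14 macrophage markers), those of cluster 0 *Dmkn*, *Il1b* and *Gbp2* (11 of 12 monocyte markers) and those of cluster 6 *Hp* and *Serpinb10* (12 of 12 monocyte markers). Cluster 7 (118 and 249 cells) had 9 of 12 T cell markers in the table but none among its 10 leading genes, and is given by its number. The classes were mixed differently in each library. Cluster 3 held 15.2% of the WT-labelled cells and 5.17% of the KO-labelled cells, while cluster 0 held 14.3% and 12.8%, cluster 10 held 5.31% and 4.71%, and cluster 6 held 5.73% and 8.94%.

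Matrix metalloproteinases (MMPs) are zinc-dependent enzymes that cut collagen, elastin and other matrix proteins, and cathepsin K, encoded by *Ctsk*, is a cysteine protease best known for degrading bone collagen in osteoclasts. Tissue inhibitors of metalloproteinases (TIMPs) bind active MMPs and block them. Matricellular proteins are secreted into the matrix and signal to cells through integrins, CD44, CD36 and CD47 more than they build structure. Macrophages are a known source of all 3 groups in tumors, and *Spp1* is used as a label of one kind of tumor-associated macrophage (TAM).

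The levels, given as CPM (a gene's UMIs per 1000000 UMIs of the group), placed most of these genes in the macrophage/monocyte class. In the library labelled WT, 9 of the 10 genes had their highest level in a macrophage or monocyte cluster, and in the library labelled KO 7 did. Of all 8328 genes with at least 100 UMIs in the class, 25.6% and 30.6% were highest there. Cluster 3 was the highest cluster of both libraries for *Mmp13*, *Mmp14*, *Thbs1* and *Spp1*, cluster 10 for *Timp2* and cluster 0 for *Tgfbi*. *Mmp12* was highest in clusters 10 and 3 of the library labelled WT, whose intervals overlapped, and in cluster 3 of the library labelled KO. *Mmp9*, *Ctsk* and *Timp1* were the exceptions in at least 1 library and are taken up below. Of 8 listed markers of fibroblasts, another known source of TIMPs, MMPs and matricellular proteins, the 4 in the table (*Col1a1*, *Col1a2*, *Lum* and *Pdgfrb*) had 0 and 2 UMIs together in the macrophage/monocyte cells.

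**Figure D1:**
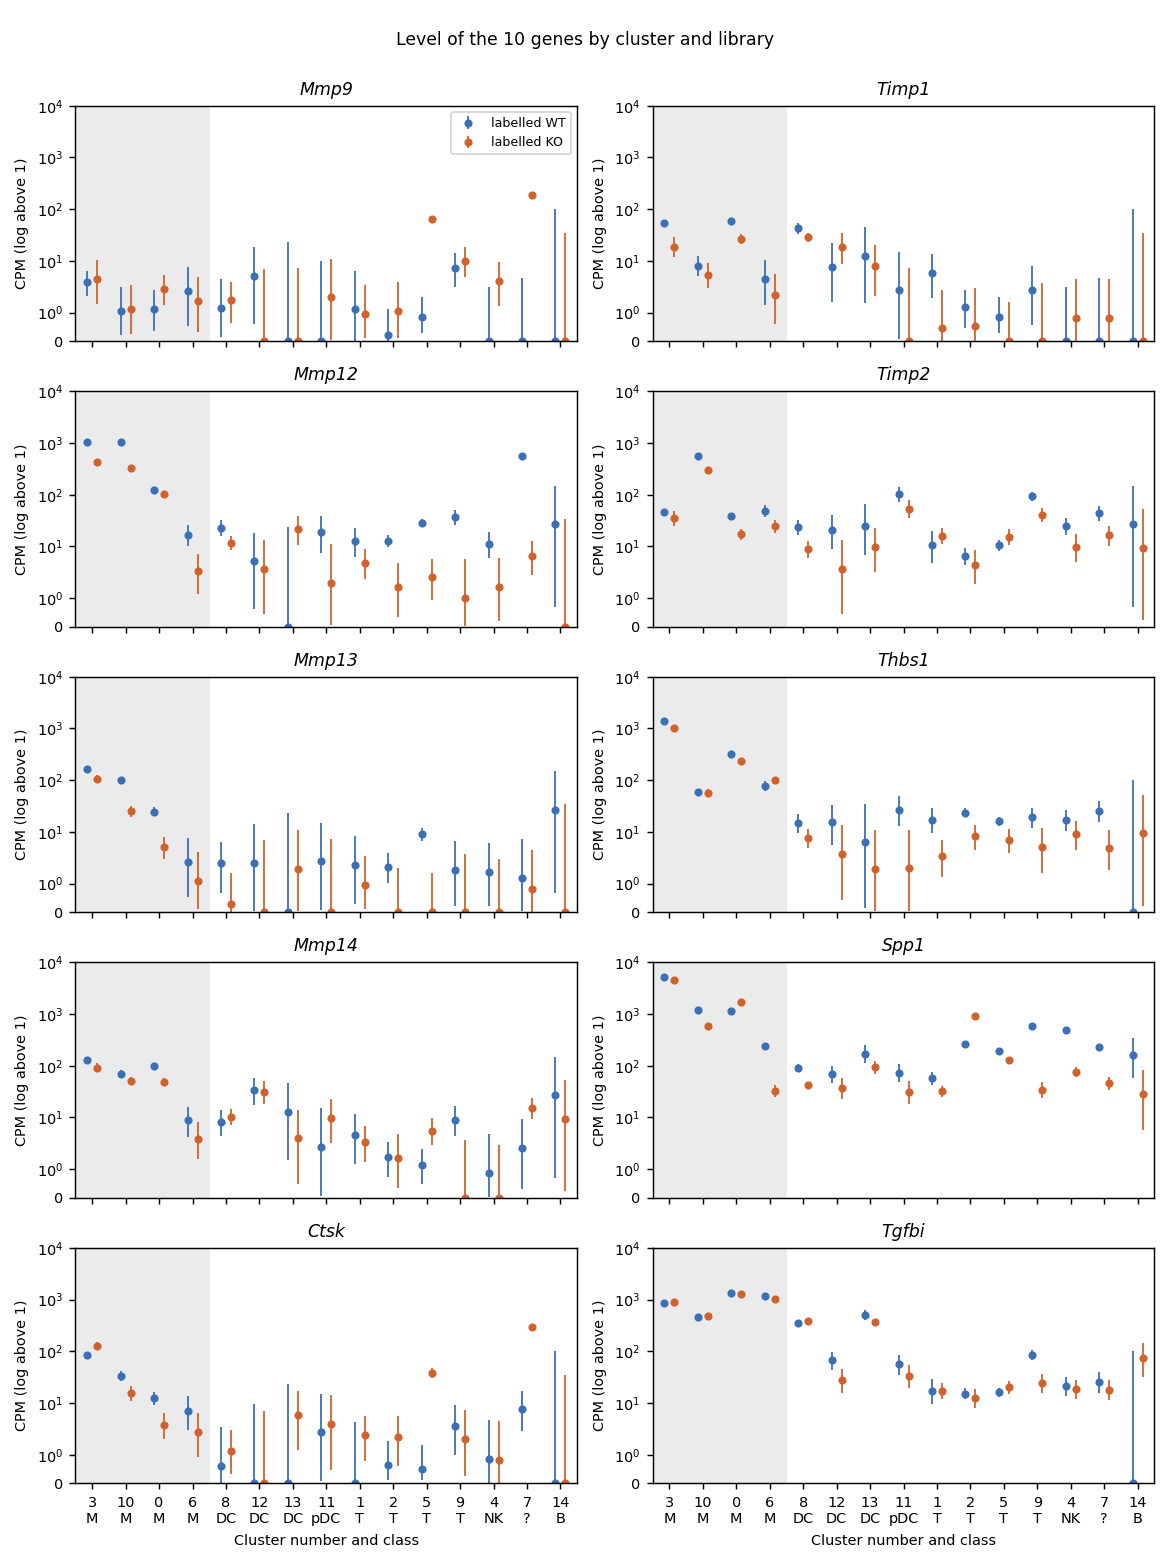
Level of each gene in every cluster, in CPM on an axis that is linear below 1 and logarithmic above, with exact Poisson 95% intervals, for the library labelled WT (blue) and the library labelled KO (orange). The grey band marks the macrophage/monocyte clusters (M), where *Spp1* reached 5079 and 4527 CPM in cluster 3; the letters under the other numbers give their class, and the question mark is the unnamed cluster 7.

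Between the libraries, the macrophage/monocyte cells of the library labelled KO held less of *Mmp12*, *Mmp13*, *Timp1* and *Thbs1*. Among the 9 genes that reached 100 UMIs here, these 4 were at least 2-fold lower, against 1.68% of all 8328 genes with as many UMIs, and 0 were at least 2-fold higher, against 0.696% of all genes. At 1.5-fold, 8 of the 9 were lower, against 4.74% of all genes, and *Tgfbi* was the exception. With the 4 clusters given the same mix in both libraries, 3 of the 9 were at least 2-fold lower and 5 at least 1.5-fold lower, without *Ctsk*, *Thbs1* and *Spp1*. The share of all genes was not computed with that mix, so 1.68% and 4.74% are no measure for these counts. Since the genes were selected on these values, the counts support nothing by themselves. The median log2 ratio of all genes in the class was 0.06. The differences by gene and by cluster follow.

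*Mmp12* (chromosome 9, 7344381 to 7369499, plus strand) encodes macrophage elastase, which cuts elastin. In macrophage/monocyte cells it had 7298 UMIs, or 615 CPM (601 to 629), for the WT label and 1693 UMIs, or 189 CPM (180.1 to 198), for the KO label. The log2 ratio (KO-labelled over WT-labelled, as throughout) was −1.70 (−1.78 to −1.63). Within clusters the level was 1041 and 432 CPM in cluster 3, 1051 and 332 CPM in cluster 10, and 125 and 102 CPM in cluster 0. The gene was thus more than 2-fold lower in clusters 3 and 10 (log2 ratios −1.27 and −1.66) and within 2-fold in cluster 0 (−0.30, −0.50 to −0.11). Without cells with a melanoma UMI the cluster 3 value was −0.89 (−1.04 to −0.74), within 2-fold. The cluster 0 value was −0.17 (−0.40 to 0.05) without the 2 cells with the most UMIs in each library and −0.03 (−0.24 to 0.19) without cells with a melanoma UMI, intervals that include 0.

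*Mmp13* (chromosome 9, 7272514 to 7283331, plus strand) encodes collagenase 3 and lies 61049 bases before *Mmp12* on the same strand. It had 984 UMIs, or 82.9 CPM (77.8 to 88.2), for the WT label and 201 UMIs, or 22.4 CPM (19.4 to 25.8), for the KO label. The log2 ratio was −1.89 (−2.11 to −1.66), and −1.16 with the macrophage/monocyte clusters given the same mix in both libraries. It was lower in all 3 clusters that held over 100 UMIs, at 162 and 106 CPM in cluster 3, 102 and 24.9 CPM in cluster 10 and 24.7 and 5.17 CPM in cluster 0. Its decrease in cluster 3 (log2 ratio −0.62, −0.92 to −0.33) was less than 2-fold, and those in clusters 10 and 0 (−2.04 and −2.26) were more. Without cells with a melanoma UMI the cluster 3 value was −0.26 (−0.59 to 0.07), an interval that includes 0.

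*Mmp12* and *Mmp13* shared cells. In the library labelled WT, the 121 macrophage/monocyte cells with at least 10 UMIs of *Mmp12* were 12.5% of the class and held 17.0% of its total UMIs, but 64.8% of its *Mmp13* UMIs and 63.4% of its *Ctsk* UMIs. In the library labelled KO, the 44 such cells were 5.29% of the class and held 7.07% of the total UMIs, 47.8% of the *Mmp13* UMIs and 56.6% of the *Ctsk* UMIs. The *Ctsk* shares rest on few cells, since 1 WT-labelled cell held 23.0% and 3 KO-labelled cells 52.5% of its UMIs in the class. The *Timp2* shares of the same cells were 41.1% and 11.3%, and the *Spp1* shares 32.4% and 12.3%, which also lay above their share of all UMIs. The same cells held 13.1% and 7.68% of the *Thbs1* UMIs and 9.07% and 4.10% of the *Tgfbi* UMIs. Those shares lay near or below the cells' share of all UMIs. Over 22 points (11 clusters in each library, which share library, depth and base composition) Pearson's r of log2(CPM + 10) was 0.84 between *Mmp12* and *Mmp13*, which did not set the pair apart, since it was 0.86 between *Mmp13* and *Mmp14* and 0.83 between *Mmp14* and *Thbs1*.

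The upstream sequences of *Mmp12* and *Mmp13* are shown because both genes were lower in the library labelled KO and lie on one chromosome, and that of *Spp1* because it shares a motif with *Mmp12*. RefSeq promoter windows (GRCm38.p6, 250 bases before to 50 after a transcript start) were listed for 8 of the 10 genes, in 10 windows, and not for *Mmp9* and *Thbs1*. The AP-1 motif, TGANTCA, which reads the same on both strands, was found in the windows of *Mmp13* and of the second of 2 listed starts of *Mmp12* and in none of the other 8 windows. It occurs in 7.81% of all 32851 listed windows. Its first base lies 35 bases before the start of *Mmp13* and 44 before that of *Mmp12*. The PU.1 motif, GAGGAAGT on either strand, does not overlap it and was found 88 bases before the first start of *Mmp12*, on the opposite strand, and 113 bases before the first start of *Spp1*, against 3.20% of all windows. A match is a description of the letters and says nothing of the factor. The 150 bases before each start follow, plus strand, 5′ to 3′, with the motif in capitals.
Mmp13, AP-1, chr9:7272364-7272513: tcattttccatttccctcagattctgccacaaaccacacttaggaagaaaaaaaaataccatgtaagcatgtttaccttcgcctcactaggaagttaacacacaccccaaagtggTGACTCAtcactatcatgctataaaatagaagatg
Mmp12 second start, AP-1, chr9:7347224-7347373: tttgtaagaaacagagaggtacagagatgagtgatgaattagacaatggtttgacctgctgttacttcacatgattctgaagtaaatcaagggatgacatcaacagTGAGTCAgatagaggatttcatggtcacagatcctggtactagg
Mmp12 first start, PU.1, chr9:7344247-7344396: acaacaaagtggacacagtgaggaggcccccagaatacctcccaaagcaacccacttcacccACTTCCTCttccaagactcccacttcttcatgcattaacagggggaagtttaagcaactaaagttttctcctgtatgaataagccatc
Spp1 first start, PU.1, chr5:104434961-104435110: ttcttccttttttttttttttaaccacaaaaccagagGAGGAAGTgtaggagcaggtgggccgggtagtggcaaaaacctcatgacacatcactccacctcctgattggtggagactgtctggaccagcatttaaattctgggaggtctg

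*Mmp14* (chromosome 14, 54431612 to 54445364, plus strand) encodes the membrane-bound MT1-MMP, which activates other MMPs at the cell surface. It had 1088 UMIs, or 91.6 CPM (86.3 to 97.3), for the WT label and 413 UMIs, or 46.1 CPM (41.8 to 50.8), for the KO label, a log2 ratio of −0.99 (−1.16 to −0.83). It was lower in each of the clusters with over 100 UMIs, by −0.46 in clusters 3 and 10 and by −0.98 in cluster 0. Of macrophage/monocyte cells, 45.6% and 24.6% held a UMI, and no cell held more than 13 and 6, whereas up to 346 and 119 UMIs of *Mmp12* lay in 1 cell. After thinning each cell to 5700 UMIs (74 and 99 cells had fewer and were left out) it was found in 34.0% (30.9 to 37.2%) and 16.6% (14.02 to 19.5%) of cells.

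*Ctsk* (chromosome 3, 95499256 to 95509362, plus strand) ran both ways within the class. Over all macrophage/monocyte cells it had 465 UMIs, or 39.2 CPM (35.7 to 42.9), and 198 UMIs, or 22.1 CPM (19.1 to 25.4), a log2 ratio of −0.83 (−1.07 to −0.58). In cluster 3 it was higher in the library labelled KO, at 85.4 and 126 CPM (0.56, 0.27 to 0.86), and in clusters 10 and 0 it was lower, at 33.6 and 15.6 CPM and at 12.4 and 3.73 CPM. Few cells set these values. In cluster 3, 1 WT-labelled cell held 107 of 309 UMIs and 1 KO-labelled cell held 50 of 140, and at least 50% of the UMIs lay in 5 and 2 cells (the fewest that reach that share, as for each such count below), of which the 2 held 67.1%. Without the 2 cells with the most in each library the log2 ratio in cluster 3 was −0.27 (−0.77 to 0.20), so the higher level there rested on those cells. With the macrophage/monocyte clusters given the same mix in both libraries the log2 ratio was 0.03, and without the 10 cells with the most UMIs in each library it was −1.70.

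*Mmp9* (chromosome 2, 164940780 to 164955850, plus strand), which encodes gelatinase B, was close to the limit of detection in macrophage/monocyte cells. There were 25 UMIs in 15 cells (2.11 CPM, 1.36 to 3.11) and 21 UMIs in 13 cells (2.34 CPM, 1.45 to 3.58), a difference not detectable at this depth (log2 ratio 0.15, −0.75 to 1.05). The value turned on how the class was drawn, and was 3.25 with the class taken from gates on marker UMIs. A KO-labelled cell of cluster 5 with 148 *Mmp9* UMIs, described below, met the *Cd3* and myeloid limits of those gates. It held 1 *Cd3* UMI and 72 UMIs of the myeloid genes. Yet over all cells the library labelled KO held 428 *Mmp9* UMIs and the library labelled WT held 44. Of the 428 UMIs, 377 (88.1%) came from 2 cells. One lay in cluster 7, with 24721 UMIs in all, of which 229 were *Mmp9*, 355 *Ctsk* and 16 *Mmp14*. The other lay in cluster 5, a T cell cluster led by cell cycle genes, with 32356 UMIs, of which 148 were *Mmp9*, 83 *Ctsk* and 11 *Mmp14*. No other cell of either library held more than 6 *Mmp9* UMIs.

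The same 2 cells held 66.0% of the *Ctsk* UMIs of the library labelled KO. Between them they also held UMIs of 6 further genes known from osteoclasts, picked after the values had been seen. *Acp5*, which encodes tartrate-resistant acid phosphatase, had 388 and 86 UMIs in them and at most 22 in any other cell of that library. It was widespread, with 1447 UMIs in 783 WT-labelled cells and 1605 in 719 KO-labelled cells. The 2 cells held 29.5% of the KO-labelled *Acp5* UMIs. *Oscar*, an osteoclast-associated receptor, had 13 UMIs in the former of the 2 cells, 3 in all other KO-labelled cells together and 0 in the library labelled WT. *Nfatc1*, a transcription factor of osteoclast formation, had 21 and 12 UMIs, and *Dcstamp*, a cell fusion gene, had 14 and 7, against at most 8 and 13 in any WT-labelled cell. The 2 cells held 4.86% of the KO-labelled UMIs of *Nfatc1* and 42.9% of those of *Dcstamp*. *Atp6v0d2*, a proton pump subunit, had 31 UMIs in both cells together (13.5% of the library's), where 1 other KO-labelled cell held 31 and 1 WT-labelled cell held 61, and *Ocstamp*, another fusion gene, had 11 and 0, against at most 7 in any other cell of either library. The cells held 4 and 1 UMIs of *Cd3d*, *Cd3e* and *Cd3g*, and 138 and 72 UMIs of 8 myeloid genes. In the library labelled WT no cell held more than 4 *Mmp9* UMIs, and the cell with the most *Ctsk* (107 UMIs, in cluster 3) had none.

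The T cell class differed in the same 2 proteases. Among the 7 genes that reached 100 UMIs in T cells, *Mmp9* and *Ctsk* were at least 2-fold higher in the library labelled KO, against 0.915% of all 8310 genes, and *Mmp12* and *Thbs1* at least 2-fold lower, against 1.46%. *Mmp9* had 15 and 163 T cell UMIs, a log2 ratio of 4.22 (3.46 to 5.09), which was 0.79 without the 2 cells. *Ctsk* had 10 and 100, a log2 ratio of 4.10 (3.17 to 5.21), which was 1.55 without them on fewer than 100 UMIs. In cluster 7, *Mmp9* had 0 and 232 UMIs, at least 49.0-fold higher against a limit of 3 counts, and 229 of those UMIs were in 1 cell. *Mmp12* in cluster 7 ran the other way, where a single WT-labelled cell of cluster 7, with 77632 UMIs in all and 541 of *Lyz2*, held 419 of the 434 *Mmp12* UMIs of that cluster.

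**Figure D2:**
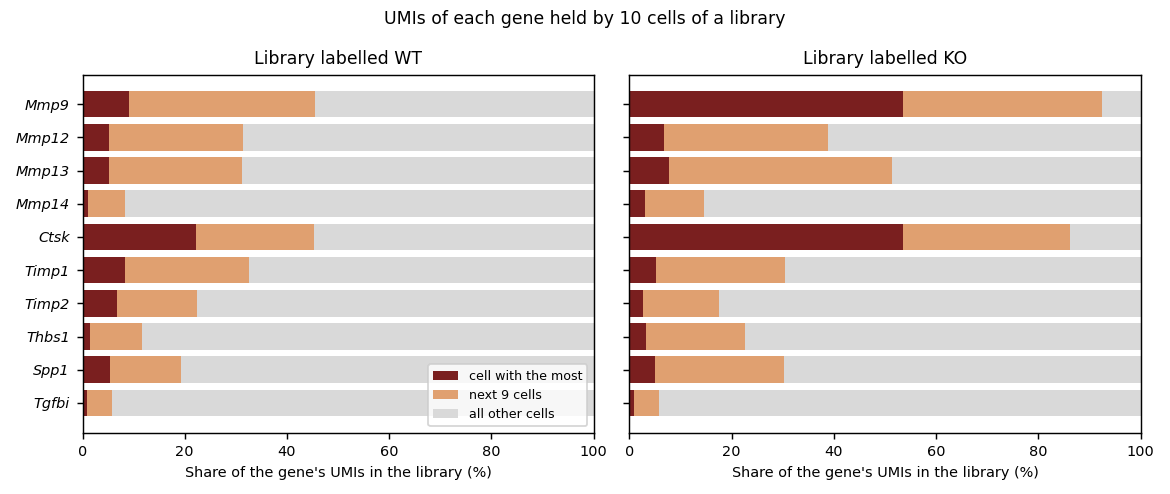
Share of each gene's UMIs, in percent of all its UMIs in a library, that lay in the 1 cell with the most (dark red), in the next 9 cells (orange) and in all other cells (grey). In the library labelled KO, 10 cells held 92.5% of *Mmp9* and 86.1% of *Ctsk*, while for *Tgfbi* 10 cells held 5.85% and 5.78% in the libraries labelled WT and KO.

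*Timp1* (chromosome X, 20870166 to 20874735, plus strand) encodes a secreted inhibitor of most MMPs. In macrophage/monocyte cells it had 477 UMIs, or 40.2 CPM (36.7 to 44.0), and 132 UMIs, or 14.7 CPM (12.3 to 17.5), a log2 ratio of −1.45 (−1.74 to −1.17). The level was lower in both clusters that held most of it, at 59.4 and 26.7 CPM in cluster 0 and at 53.6 and 18.9 CPM in cluster 3. 50% of these UMIs lay in 18 and 13 cells. In DCs *Timp1* was at 34.4 CPM (27.0 to 43.1) and 24.9 CPM (20.5 to 30.002), a log2 ratio of −0.46 (−0.90 to −0.02). Those levels were 85.5% (67.1 to 107%) and 169% (139 to 204%) of the macrophage/monocyte level, with intervals from the DC count alone. In the library labelled KO the level was thus higher in DCs, though their UMIs were fewer (111 against 132). With the UMIs of the 10 DCs with the most left out, and none of the macrophage/monocyte cells, the shares were 31.2% and 77.7%. In the library labelled KO the DCs of cluster 8, led by *Cd209a* and *Mgl2*, were its highest cluster, at 28.5 CPM against 26.7 in cluster 0, with overlapping intervals. DCs contributed 12.96% of all its UMIs in the library labelled WT and 44.9% in the library labelled KO, where DCs were also 12.2% of the cells against 5.89%.

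*Timp2* (chromosome 11, 118301069 to 118355740, minus strand), whose product both inhibits MMPs and helps MT1-MMP to activate pro-MMP2, followed another pattern of cells. It had 1976 UMIs, or 166 CPM (159 to 174), and 910 UMIs, or 102 CPM (95.1 to 108), in macrophage/monocyte cells, a log2 ratio of −0.71 (−0.83 to −0.60). Cluster 10 alone held 1587 and 767 of these UMIs, at 561 and 298 CPM, a log2 ratio of −0.91 (−1.04 to −0.79). In cluster 10 it was spread over 121 of 127 and 113 of 124 cells. It was also measured outside the class, at 102 and 53.5 CPM in plasmacytoid DCs (cluster 11) and at 92.75 and 41.2 CPM in cluster 9, T cells led by *Foxp3*, a regulatory T cell gene. In cluster 9 no cell held more than 5 of its 102 and 41 UMIs, and 60 and 33 cells held one. In both groups the library labelled KO was lower, at log2 ratios of −0.94 (−1.70 to −0.19) and −1.17 (−1.73 to −0.64). NK cells, with 29 and 12 UMIs, were at 24.9 and 9.75 CPM and lower too (−1.35, −2.46 to −0.34). T cells as a whole were at a log2 ratio of 0.01 (−0.33 to 0.34). Whether free RNA, taken up below, had a part in these values was not tested.

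*Thbs1* (chromosome 2, 118111876 to 118127133, plus strand) encodes thrombospondin 1, an inhibitor of blood vessel growth that also activates latent TGF-β. It had 6610 UMIs, or 557 CPM (543 to 570.4), and 2254 UMIs, or 252 CPM (241 to 262), in macrophage/monocyte cells, a log2 ratio of −1.15 (−1.22 to −1.08). Within clusters the differences were smaller. The level was 1369 and 1001 CPM in cluster 3 (−0.45, −0.55 to −0.36), 327 and 234 CPM in cluster 0 (−0.48), 58.3 and 57.6 CPM in cluster 10 (−0.02, −0.35 to 0.31) and 78.5 and 99.7 CPM in cluster 6 (0.34, −0.03 to 0.73). With the same mix of the 4 clusters in both libraries the log2 ratio was −0.42, under 2-fold. 50% of its UMIs lay in 63 and 34 cells.

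*Spp1* (chromosome 5, 104435118 to 104441050, plus strand) encodes osteopontin, a ligand of integrins and CD44. It had 26942 UMIs, or 2269 CPM (2242 to 2297), and 12485 UMIs, or 1394 CPM (1369 to 1418), in macrophage/monocyte cells, a log2 ratio of −0.70 (−0.73 to −0.67). Within clusters it ran both ways. It was 5079 and 4527 CPM in cluster 3 (−0.17, −0.21 to −0.12), 1208 and 594 CPM in cluster 10 (−1.02, −1.11 to −0.94) and 244 and 32.9 CPM in cluster 6 (−2.89, −3.33 to −2.48), but 1135 and 1688 CPM in cluster 0 (0.57, 0.52 to 0.63). The cluster 3 value was 0.03 (−0.02 to 0.07) without cells with both T cell and myeloid UMIs. Without cells with a melanoma UMI it was 0.05 (0.0008 to 0.095), so its direction was not stable. With the same mix of clusters in both libraries the log2 ratio was −0.08. One WT-labelled cell of cluster 3 held 1690 *Spp1* UMIs of its 18444 in all, and in cluster 0 50% of the UMIs lay in 10 and 11 cells. In cluster 6 the difference rested in part on 2 WT-labelled cells, which held 58.8% of the 277 UMIs, and without the 2 cells with the most in each library the levels were 103 and 31.0 CPM (−1.73, −2.22 to −1.25).

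*Tgfbi* (chromosome 13, 56609523 to 56639562, plus strand) encodes a TGF-β-induced matrix protein that binds integrins and collagen. It was the gene that differed least, with 11439 UMIs, or 964 CPM (946 to 981), and 8516 UMIs, or 951 CPM (931 to 971), in macrophage/monocyte cells. The log2 ratio was −0.02 (−0.06 to 0.02). Its levels by cluster were 1349 and 1289 CPM in cluster 0, 1147 and 1002 CPM in cluster 6, 844 and 888 CPM in cluster 3 and 459 and 483 CPM in cluster 10, so the log2 ratio of no macrophage/monocyte cluster was farther from 0 than −0.20. It was also measured in DCs, at 312 CPM (289 to 337) and 342 CPM (325 to 359). Of macrophage/monocyte cells, 89.8% and 92.1% held a UMI.

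**Figure D3:**
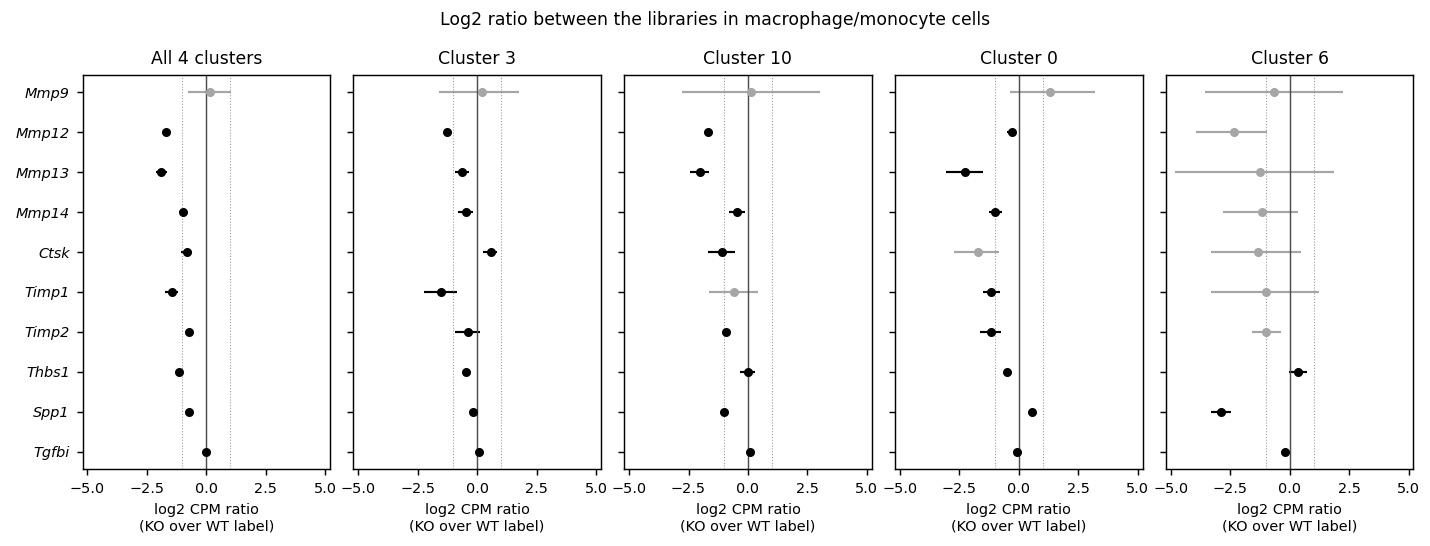
Log2 ratio of CPM, library labelled KO over library labelled WT, for each gene in all macrophage/monocyte cells and in each of their clusters, with 95% counting intervals; grey points rest on fewer than 100 UMIs and dotted lines mark 2-fold. *Mmp12* and *Mmp13* lie left of −1 when the 4 clusters are summed and *Tgfbi* at −0.02, and *Spp1* changes sign between cluster 0 and clusters 6 and 10.

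Counted within clusters, genes at least 2-fold lower in the library labelled KO among those with at least 100 UMIs were *Mmp12* and *Timp1* in cluster 3 (2 of 9, against 2.05% of all genes), *Mmp12*, *Mmp13*, *Ctsk* and *Spp1* in cluster 10 (4 of 8, against 1.26%), *Mmp13*, *Timp1* and *Timp2* in cluster 0 (3 of 8, against 1.42%) and *Spp1* in cluster 6 (1 of 3, against 1.69%). No gene was past 2-fold in all 4. Without the 2 cells with the most UMIs in each library, *Timp1* in cluster 0 stood at −0.999, just within 2-fold, and *Mmp14* there just past it at −1.01. Summed markers of neutrophils, a known source of *Mmp9* and *Mmp8*, moved in the same direction in cluster 3, at 1069 and 153 CPM, in cluster 6, at 1086 and 325 CPM, and in cluster 10, at 204 and 35.02 CPM. In cluster 0 they were at 352 and 325 CPM, but 884 of the 1131 KO-labelled UMIs lay in 1 cell, and without the cell with the most in each library they were at 290.0 and 71.0 CPM. All 11 of these markers had UMIs in macrophage/monocyte cells of the library labelled WT and 9 in the library labelled KO. The neutrophil markers were lower in the library labelled KO outside this class too. They were at 220 and 25.5 CPM in T cells, 121 and 13.8 CPM in NK cells, 112 and 10.1 CPM in DCs and 183 and 3.96 CPM in plasmacytoid DCs. In cluster 10 the summed melanoma markers were at 72.1 and 32.3 CPM (28.4 and 17.0 in the class), the T cell markers at 274 and 124 CPM (327 and 203 in the class), and 29.9% and 13.7% of the cells held both T cell and myeloid UMIs. Without the cells that held both, the log2 ratios in cluster 10 were −1.60 for *Mmp12*, −2.02 for *Mmp13*, −1.42 for *Ctsk* and −0.84 for *Spp1*, which was then within 2-fold, while *Thbs1* moved from −0.02 to 0.72 (0.30 to 1.16). Without the cells with a melanoma UMI these 4 stood at −1.74, −2.98, −1.14 and −1.52 in cluster 10, and *Mmp12* in cluster 3 was within 2-fold at −0.89. The log2 ratio of *Spp1* in cluster 3, −0.17 in all cells, was 0.03 and 0.05 without the former and without the latter cells. That of *Thbs1* in cluster 10 was −0.43 (−0.91 to 0.04) without the 2 cells with the most of its UMIs in each library. The part of the neutrophil markers in the differences was not tested.

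How many cells held the UMIs differed from gene to gene. 50% of the macrophage/monocyte UMIs lay in 166 and 151 cells (17.1% and 18.1% of the cells) for *Tgfbi* and in 113 and 54 (11.7% and 6.49%) for *Mmp14*, but in 24 and 15 (2.48% and 1.80%) for *Mmp12*, in 22 and 10 for *Mmp13*, in 12 and 3 for *Ctsk*, in 32 and 33 for *Timp2* and in 44 and 23 for *Spp1*. Of the 7 genes with at least 1000 UMIs there, at most 5% of the cells of both libraries held 50% of the UMIs for 4. These were *Mmp12*, *Mmp13*, *Timp2* and *Spp1*, against 2.07% of all 2462 genes with as many UMIs, whose medians were 15.3% and 14.5% of the cells. It was so too for *Mmp9*, *Ctsk* and *Timp1*, with under 1000 UMIs, which makes 7 of the 10 genes. No share of all genes was computed at that lower depth. For *Mmp9*, with 25 and 21 UMIs, the low count alone fixed the outcome. The 1% of cells with the most *Spp1* held 21.2% and 27.7% of its UMIs and those with the most *Mmp12* 30.9% and 38.2%, where the 1% of cells with the most UMIs of any kind held 3.98% and 3.66% of all UMIs.

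**Figure D4:**
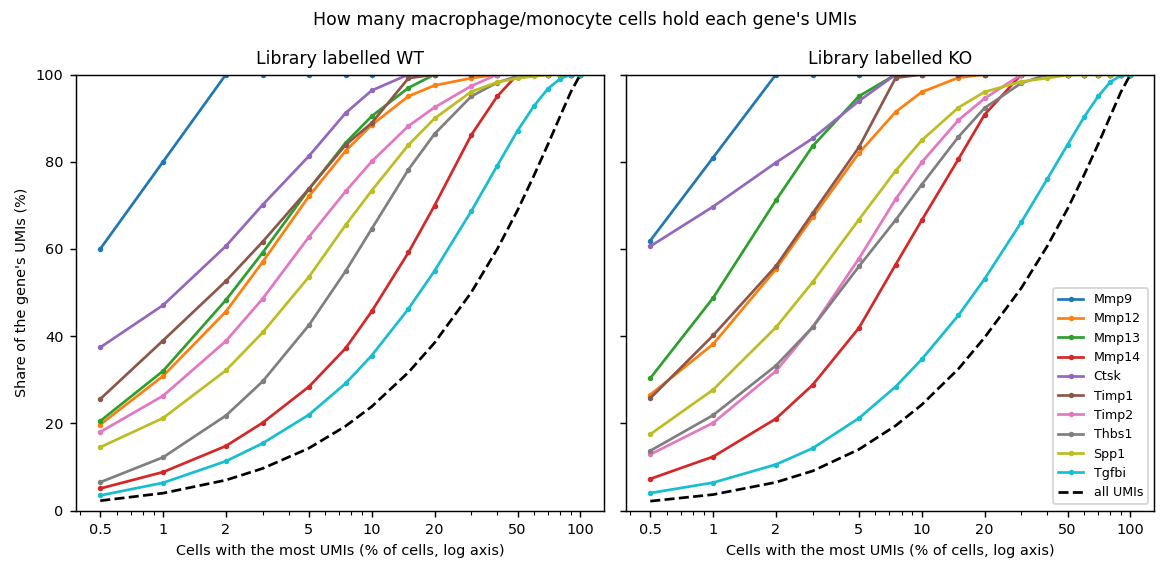
Cumulative share of each gene's UMIs (vertical axis, percent) in the macrophage/monocyte cells with the most UMIs of that gene (horizontal axis, percent of the cells, logarithmic), for the library labelled WT (left) and the library labelled KO (right); the dashed line is the same for all UMIs. *Tgfbi* lies nearest to the dashed line, and 5% of the cells hold 72.1% and 81.9% of *Mmp12*.

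Over the whole class, more cells of the library labelled WT held *Mmp12*, *Mmp13*, *Thbs1* and *Spp1*, also at equal depth. Thinning does not even out the mix of clusters, where cluster 3 held 15.2% and 5.17% of the cells of the libraries. With the same mix in both libraries the log2 ratios of CPM were −1.33, −1.16, −0.42 and −0.08, in the order of the genes. With each macrophage/monocyte cell thinned to 5700 UMIs, the share with a UMI was 28.0% (25.1 to 31.1%) and 14.3% (11.9 to 17.1%) for *Mmp12*, 13.6% (11.5 to 16.05%) and 3.96% (2.67 to 5.63%) for *Mmp13*, 41.8% (38.5 to 45.1%) and 30.8% (27.5 to 34.3%) for *Thbs1*, and 59.9% (56.6 to 63.1%) and 41.9% (38.3 to 45.6%) for *Spp1*. For *Timp2* the shares were 26.6% (23.72 to 29.6%) and 20.6% (17.7 to 23.71%), with intervals that all but touched. *Tgfbi* ran the other way, at 85.7% (83.2 to 87.9%) and 89.4% (86.9 to 91.5%), with overlapping intervals. Before thinning, at medians of 10355 and 8713 UMIs, the shares were 36.2% and 16.5% for *Mmp12*, 18.2% and 6.25% for *Mmp13*, 52.5% and 35.3% for *Thbs1* and 71.7% and 52.2% for *Spp1*. A cell held a mean of 3.10 and 2.28 of the 10 genes after thinning.

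Free RNA in the droplets gives some UMIs in cells that do not make a gene, so the levels in NK cells (medians of 4872 and 3977 UMIs) were read beside those above. NK cells had 1.81% and 0.860% of the macrophage/monocyte level of *Mmp12*, 3.08% and 3.55% of that of *Thbs1* and 2.23% and 1.97% of that of *Tgfbi*. T cells had 3.63% and 1.46%, 3.47% and 2.36%, and 2.28% and 1.89% of the same levels. With every cell thinned to 3700 UMIs, the shares with a *Thbs1* UMI were 38.7% and 27.6% of macrophage/monocyte cells, 6.48% and 1.71% of T cells and 6.78% and 2.45% of NK cells. The T cell shares of *Thbs1* were at or below those of NK cells and are not read as expression. Its T cell level was 19.3 and 5.95 CPM (log2 ratio −1.70, −2.20 to −1.23), with 20.8% of the 240 WT-labelled UMIs in 2 cells, and its NK level 17.2 and 8.94 CPM (−0.94, −2.15 to 0.19). Whether the T cell difference came from free RNA was not tested. *Mmp12* in T cells, at 22.3 and 2.77 CPM, rested in part on 1 cell with 78 of 277 UMIs, and 52 of 895 and 7 of 700 thinned T cells held it.

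*Spp1* was read in the same way. NK cells had 501 CPM (461 to 543) under the WT label and 75.6 (61.0 to 92.6) under the KO label, which are 22.1% and 5.42% of the macrophage/monocyte level, and it was the 1 gene with at least 100 UMIs there. It was at least 2-fold lower in the library labelled KO (log2 ratio −2.73, −3.06 to −2.41), against 1.22% of all 2615 genes, with 0 genes higher against 0.535%. Of the 584 WT-labelled UMIs, 435 lay in 10 of 189 cells. These 10 cells had a median of 13172.5 UMIs and 4.5 UMIs of *Ncr1* and *Klrb1c*, which encode NK cell receptors, and their 8 summed myeloid genes, which include *Fcer1g*, a gene that NK cells express, stood at 2184 CPM, against 2272 CPM in the NK cells with fewer *Spp1* UMIs. In cluster 2, T cells led by *Cxcr6*, *Lag3* and *Cd8a*, 10 KO-labelled cells with at least 10 *Spp1* UMIs held 1548 of 1686 UMIs, with 22 or more UMIs of the *Cd3* genes in each, and their myeloid genes were at 462 CPM, against 463 CPM in the other cells of the cluster. In other sets of T cells they were higher in the cells with at least 10 *Spp1* UMIs, at 652 against 584 CPM in cluster 2 of the library labelled WT, at 4051 against 426 CPM in cluster 5 of the library labelled KO, and at 953 and 2402 CPM over all T cells, against 549 and 595 CPM in the T cells with fewer *Spp1* UMIs.

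In T cells as a whole *Spp1* had 3034 and 2086 UMIs, or 244 and 289 CPM, a log2 ratio of 0.24 (0.16 to 0.32). The direction turned on few cells. In cluster 2 of the library labelled KO, 2 cells held 756 and 580 UMIs, with 232 and 51 UMIs of the *Cd3* genes, and in cluster 9 of the library labelled WT 1 cell held 555 of 631 UMIs, with 30 *Cd3* UMIs and myeloid genes at 10889 CPM. Without the cell with the most UMIs in each library the log2 ratio was −0.11, and without the 10 cells with the most it was −1.07. By cluster, with all cells kept, it was 1.78 in cluster 2, but −0.83 in cluster 1, −0.56 in cluster 5 and −4.07 in cluster 9. At 3700 UMIs per cell, 29.3% (26.3 to 32.4%) and 16.3% (13.6 to 19.2%) of T cells held a *Spp1* UMI, against 33.9% (26.97 to 41.4%) and 13.5% (8.66 to 19.7%) of NK cells, 22.0% and 15.3% of DCs and 20.8% and 14.3% of plasmacytoid DCs. The T cell and NK intervals overlapped in both libraries, and the T cell shares are not read as expression by T cells at large.

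DCs were read for *Timp1*, *Spp1* and *Tgfbi*, the 3 genes with at least 100 UMIs. Of these, 0 were at least 2-fold lower, against 1.73% of all 5441 genes, and 0 at least 2-fold higher, against 0.368%. *Spp1* came nearest, at 92.8 and 47.4 CPM, a log2 ratio of −0.97 (−1.26 to −0.68), at 4.09% and 3.40% of the macrophage/monocyte level. *Mmp14*, with 28 and 54 UMIs, was at 12.998 and 12.1 CPM (log2 ratio −0.10, −0.79 to 0.61) and within DCs was highest in cluster 12, led by *Ccl22*, *Fscn1* and *Ccr7*, at 33.3 and 31.6 CPM. Also under 100 UMIs, *Timp2* (50 and 37 UMIs) was at −1.48 (−2.14 to −0.84) and *Thbs1* (31 and 29 UMIs) at −1.14 (−1.93 to −0.37). *Mmp12* (39 and 53 UMIs) was at −0.61 (−1.23 to 0.03).

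Other genes of matrix remodelling were counted by list. Of 76 listed genes in 7 lists (other MMPs, ADAM and ADAMTS proteases, the plasminogen system, other inhibitors, other matricellular and matrix glycoproteins, receptors of the ligands, and TGF-β), 60 were in the table and 31 had at least 100 UMIs in macrophage/monocyte cells, where 1 was at least 2-fold lower, against 1.68% of all genes, and 0 higher, against 0.696%. Their median log2 ratio was −0.07, against 0.06 for all genes, and 22 of the 31 were highest in a macrophage or monocyte cluster with both libraries together, against 29.9% of all genes. The lower gene was *Mmp19*, 39.8 and 15.9 CPM (log2 ratio −1.33, −1.61 to −1.06). *Mmp8*, neutrophil collagenase and one of the neutrophil markers, was at 38.6 and 28.5 CPM, and *Mmp2* had 0 UMIs in these cells of either library. *Adam8* and *Adam15*, the sheddases with the most UMIs, had log2 ratios of −0.51 and 0.13. *Plaur*, the urokinase receptor, and *Serpinb2*, a plasminogen activator inhibitor, were at −0.18 and 0.10. The cystatins *Cstb* and *Cst3*, inhibitors of cysteine proteases such as cathepsin K, ran opposite ways, at −0.64 (−0.67 to −0.61) and 0.37 (0.34 to 0.40). *Lgals3*, galectin 3, was at 8030 and 5459 CPM (−0.56), and *Fn1*, fibronectin, at 207 and 216 CPM (0.06). Of the receptors, *Cd63*, which binds TIMP1, was at 446 and 478 CPM and *Cd47*, which binds thrombospondin 1, at 343 and 329 CPM. *Tgfb1* was at 413 and 508 CPM (0.30, 0.24 to 0.36) and *Tgfbr2* at 21.3 and 32.4 CPM (0.60, 0.35 to 0.85).

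The genes most like each of the 10 across the same 22 points are named as a description, among 7030 genes with at least 500 UMIs. *Mmp12* was most like *Vat1*, *Fabp5* and *Ctsl* (r of 0.96, 0.93 and 0.93), and *Mmp13* was like *Pdpn* and *Gla* (0.96 and 0.93). *Mmp14* was most like *Slc7a8*, *C3ar1* and *Ccl7* (0.95, 0.94 and 0.93). *Timp1* was most like *Ifi205*, *Cnn3* and *Spint1* (0.92, 0.91 and 0.90), and *Timp2* was most like *Cpd*, *Itsn1* and *Folr2* (0.93, 0.87 and 0.87). *Thbs1* was most like *Slfn4*, *Id1* and *Cxcl2* (0.97 each), *Spp1* was like *Sra1* and *Adam8* (0.87 and 0.86), and *Tgfbi* was most like *Lrrc25*, *AI607873* and *Ralb* (0.99 each). *Ctsk* was less like any other gene (*Fbxo42*, *Vegfa* and *Ero1l*, 0.74, 0.73 and 0.72), as was *Mmp9* (*Ctsk*, *Mt3* and *Utp23*, 0.67, 0.65 and 0.60).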

How the data were processed

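The authors sorted TIIs, made Chromium 3′ V2 libraries, sequenced them on a NovaSeq, counted UMIs with Cell Ranger, aggregated both libraries and filtered cells on UMIs (300 or more), genes (100 or more) and mitochondrial reads (5% or less), limits that every deposited cell met. The submitters' processing notes name mm10. The deposited values, described as counts, are on a natural log scale: each is the log of 1 plus UMIs per 10000. Inverting this recovered integers, within 0.01, for 100% of values above 0 in each of the 5022 cells. The barcode suffix named in the sample descriptions gave each cell its library.

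Clusters were rebuilt with Seurat 5.3.0 (R 4.3.3; depth regressed out, 13 PCs, resolution 0.8) with the 10 genes and the pathway lists left out of the variable genes. A cluster was named by the marker list with the largest share of markers detected (present in 10% or more of its cells, and above its mean over clusters), if 3 or more were, and stayed unnamed where its top 10 genes (present in 25% or more) held more markers of another class; this rule was set after seeing the data, and cell names may differ from the study's. No doublets were removed. Cells with at least 3 UMIs of the *Cd3* genes and at least 5 of 8 myeloid genes were 29.0% and 18.8% of the libraries.

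CPM have exact Poisson intervals, shares of cells exact Clopper-Pearson intervals and log2 ratios an interval from the exact binomial, all at 95%. Only the log2 ratio intervals were tried on simulated counts, drawn as independent Poisson totals. Such counts hold no gathering of UMIs in few cells, so the trial cannot show how the intervals hold for these genes. A count of 0 was read against a limit of 3 counts. With 1 library per genotype no p-value or standard error was computed, and the study's tests over cells were not repeated. Cells were thinned to the 10th percentile of their class, or of all cells, rounded down to 100 UMIs. The genes named are the 10 genes, the 2 genes of each pathway list with the most UMIs in macrophage/monocyte cells, and the 3 genes most like each of the 10, of which 1 is not reported here; *Oscar*, *Acp5*, *Nfatc1*, *Dcstamp*, *Atp6v0d2*, *Ocstamp*, *Lyz2* and *Mmp2* beyond that rule were named after their values were seen. The members and all lists were chosen with earlier results of these data known. Alternatives covered the clustering, gates, mixed cells, shared barcodes, cell weights, thinning, scaling, melanoma RNA, minimum UMIs, the fold and the cells with the most UMIs. Gene positions are from GENCODE M21 (GRCm38). Software was scipy 1.17.1, numpy 2.4.6 and matplotlib 3.10.9 under Python 3.11.15.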

Additional observations from a re-analysis of the deposited data

Results flagged for a closer look

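Between the 4 classes, and between the 4 macrophage/monocyte clusters, 2 of the genes ran in opposite directions beyond counting error on both sides. The difference between the groups was not tested, since each genotype is 1 library. *Spp1* had log2 ratios of KO-labelled to WT-labelled of −0.70 in macrophage/monocyte cells, −0.97 in DCs and −2.73 in NK cells, but 0.24 in T cells. The T cell direction rested on few cells, at −0.11 without the cell with the most UMIs in each library and −1.51 without cells of both T cell and myeloid UMIs, and 11 of 16 alternatives kept its sign. Within macrophage/monocyte cells it was −0.17 in cluster 3, −2.89 in cluster 6 and −1.02 in cluster 10, but 0.57 in cluster 0. The cluster 3 value changed sign, to 0.03 without cells of both T cell and myeloid UMIs and 0.05 without cells with a melanoma UMI. In cluster 6, 2 WT-labelled cells held 58.8% of its 277 UMIs, and without the 2 cells with the most in each library it was −1.73. *Ctsk* was at −0.83 in macrophage/monocyte cells and 4.10 in T cells, where 83 of 100 KO-labelled UMIs were in 1 cell. Within macrophage/monocyte cells *Ctsk* was at −1.73 in cluster 0 and −1.11 in cluster 10, but 0.56 in cluster 3, where 2 KO-labelled cells held 67.1% of its UMIs and where it was −0.27 (−0.77 to 0.20) without the 2 cells with the most in each library.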

How the results depend on the processing

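No paired analysis was possible because each genotype is 1 library. Of the counts, the number of genes highest in a macrophage or monocyte cluster and the number held by few cells stayed within 1.5 times under every alternative run. In macrophage/monocyte cells the 4 genes at least 2-fold lower became 8 at 1.5-fold, and the 0 genes higher became 1 with gates on marker UMIs, *Mmp9* at a log2 ratio of 3.25. For *Mmp9*, 1 KO-labelled cell of cluster 5 with 148 of its UMIs met the *Cd3* and myeloid limits of those gates. In T cells the 2 genes lower became 1 with gates or without cells of both T cell and myeloid UMIs, 0 in thinned cells and 4 with at least 1 UMI. The 2 genes higher there became 1 without cells of both T cell and myeloid UMIs, and 0 with 20 PCs, gates, thinned cells, or without the cell with the most UMIs, the 10 with the most, the 2 cells with the most *Mmp9* or cells with a melanoma UMI. In DCs the 0 genes lower became 1 with 20 PCs, thinned cells, without cells with a melanoma UMI or at 1.5-fold, 2 with at least 30 UMIs and 3 with at least 1, and the 0 higher became 1 with at least 1 UMI. In NK cells the 1 gene lower, *Spp1*, became 0 with gates, where it had 39 UMIs, too few to be counted, at a log2 ratio of −1.04, and became 2 genes with at least 30 UMIs and 3 with at least 1. Counts also fall where a gene no longer reaches 100 UMIs. In macrophage/monocyte cells 8 of the 10 log2 ratios kept their sign under all 17 alternatives, *Ctsk* under 16 and *Mmp9* under 14; *Mmp12* ranged from −1.92 to −1.33, *Mmp13* from −2.41 to −1.16, *Timp1* from −1.63 to −1.21 and *Thbs1* from −1.38 to −0.42. Alternatives that left out the 10 cells or the 2 cells with the most UMIs, or gave the clusters 1 mix, and all alternatives within single clusters, were added after seeing the data. The cause of these changes was not tested. Depth limits *Mmp9* in macrophage/monocyte cells and most of these genes in DCs and NK cells.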
